A study of Homo sapiens with 4 samples.

Results

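The 7 genes described here make or move the bicarbonate and protons of a cell. They are 5 carbonic anhydrase genes (CA2, CA8, CA9, CA12 and CA13) and 2 bicarbonate transporter genes (SLC4A2 and SLC4A7). They were taken by name from the table of the study, on chr chromosomes, and are 7 of its 62077 rows. RNA-Seq was done on FaDu, an established cell line of a hypopharyngeal squamous carcinoma, in 4 libraries that cross oxygen with TET1 knockdown, 1 per group. TET1 is an enzyme that oxidises 5-methylcytosine in DNA. The study asked which hypoxia-responsive genes depend on it. The libraries were N-scr (normoxia, scrambled control), H-scr (hypoxia, scrambled control), N-si (normoxia, TET1-si) and H-si (hypoxia, TET1-si). Hypoxia lasted 19 h at 1% O2, the balance being 94% N2 and 5% CO2, and all cells were otherwise grown in air with 5% CO2 in serum-containing medium. Per the methods of the study, knockdown cells were made by lentiviral infection with short hairpin vectors. How many hairpins, clones or cultures stand behind a library is not given in the sources used here.

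Carbonic anhydrases are zinc enzymes that interconvert CO2 and water with bicarbonate and a proton. Some work in the cytosol and others face the outside of the cell, where they acidify the surroundings of a tumour, and the SLC4 proteins carry bicarbonate across the membrane and so set the pH inside. CA9 is a textbook target of the hypoxia-inducible factors (HIF) and is widely used as a marker of hypoxic tumour tissue.

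The values are FPKM, fragment counts scaled to exon length and to library size, so levels are compared between genes per length. Where 4 values follow each other, they stand in the order N-scr, H-scr, N-si, H-si. No group has a replicate, no difference could be set against the spread between cultures, and no p-value is given. A change is a difference of log2(FPKM + 0.1) between 2 libraries, and a gene counts as higher or lower where its mean FPKM over the 4 libraries was at least 1 and the change reached 1, that is, 2-fold. Of the 7 genes, 5 had such a mean, and CA8 and CA12 did not. CA9 reached it only through H-scr. Ratios are given without the pseudocount, with a 95% interval (Clopper-Pearson) from approximate reads that covers counting error only. An exact 0 in this table can be a failed estimate, so such a gene is said to be listed at 0 and no ratio is taken against it. Because these are bulk samples, fewer cells that express a gene and less RNA per cell cannot be told apart.

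The recovered depths lay between 22500000 reads (H-si) and 24500000 reads (H-scr and N-si). TET1 was low in all libraries, with 0.129 FPKM in scrambled against 0.0493 in TET1-si cells in normoxia, and 0.331 against 0.122 in hypoxia. It was 2.63-fold lower in TET1-si cells in normoxia and 2.71-fold lower in hypoxia (intervals of the log2 ratio -2.60 to -0.39 and -2.13 to -0.77). All 7 squamous markers were above 0, with a summed level of 4527 and 7303 FPKM in scrambled cells (normoxia, then hypoxia) and 1603 and 3678 in TET1-si cells. Among them KRT6A and KRT14 lay at or below 1.41 FPKM in both TET1-si libraries. KRT5, KRT17 and DSG3 were also lower in TET1-si than in scrambled cells in both oxygen states. The list did not fall as a whole, since CDH1 was higher after TET1-si, at 179, 292, 267 and 399 FPKM. TP63 changed little, at 50.7, 54.8, 42.1 and 53.4 FPKM. Of 3 leukocyte markers PTPRC and CD3E were at 0 or near it, and CD68 lay between 19.8 and 26.8 FPKM. Of 3 fibroblast markers PDGFRB and COL3A1 did not pass 0.241 FPKM, and nearly all of the list's sum, 5.30, 28.6, 14.1 and 37.2 FPKM, was COL1A1. The 2 endothelial markers on chr chromosomes, VWF and CDH5, summed to 8.91, 17.8, 22.2 and 48.4 FPKM. The 3 erythroid markers summed to at most 0.569 FPKM. The part of these shifts in the results below was not tested.

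The sequences that bear on the design and on the clearest differences are the hairpin target and 3 promoters. The study lists 1 lentiviral hairpin target for TET1, without tying it to these libraries, and it matches the TET1 transcript exactly, in the 3′ UTR in exon 12 of 12 on the plus strand of chromosome 10 (chr10:70451833-70451853, hg19), and no transcript of any other gene:
TET1 hairpin target: ccttgatagaatcactcagtt
HIF binds the core letters ACGTG or GCGTG, and both were searched on both strands in the 250 bases before the start of the canonical transcript (GENCODE v44lift37, on GRCh37, the same assembly as hg19). The promoters below belong to CA9, the member with the largest hypoxia response, CA12, its partner on the cell surface, and SLC4A2, the most abundant member, with the core letters of either motif in capitals.
CA9 (chr9:35673675-35673924, plus strand): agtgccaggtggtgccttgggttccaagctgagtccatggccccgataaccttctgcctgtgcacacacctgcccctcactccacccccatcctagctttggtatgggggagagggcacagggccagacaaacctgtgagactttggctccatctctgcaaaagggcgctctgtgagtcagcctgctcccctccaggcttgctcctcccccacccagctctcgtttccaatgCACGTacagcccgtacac
CA12 (chr15:63674046-63674295, minus strand): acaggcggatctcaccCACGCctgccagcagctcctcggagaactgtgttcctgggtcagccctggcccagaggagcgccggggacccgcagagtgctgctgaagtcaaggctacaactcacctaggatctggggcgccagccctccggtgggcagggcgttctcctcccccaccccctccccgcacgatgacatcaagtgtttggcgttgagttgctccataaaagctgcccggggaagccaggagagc
SLC4A2 (chr7:150756426-150756675, plus strand): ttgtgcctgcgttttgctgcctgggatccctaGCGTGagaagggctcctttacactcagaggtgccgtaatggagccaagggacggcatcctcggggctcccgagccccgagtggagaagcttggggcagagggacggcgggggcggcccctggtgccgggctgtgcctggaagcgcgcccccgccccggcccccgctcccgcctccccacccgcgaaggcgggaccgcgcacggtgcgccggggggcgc
In CA9 the match is ACGTG read on the opposite strand, at bases -18 to -14 from the start. In CA12 it is GCGTG on the opposite strand, at -234 to -230, and in SLC4A2 GCGTG on the sense strand, at -218 to -214. The promoter of SLC4A7 held GCGTG at 2 places, that of CA8 at 1 place and that of CA2 neither motif. CA13 had 4 matches to ACGTG, of which a pair are the opposite strands of CACGTG. Of 20175 promoters of this length, 20.4% held ACGTG, 40.1% GCGTG and 51.1% either, so 6 of 7 members with a match is a description of these windows and not a map of binding. The canonical start lies 2379 bases inside the deposited locus for SLC4A2 and 24871 bases inside it for CA13, so other starts of these genes were not searched.

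CA9 (ENSG00000107159, chromosome 9, 35673853 to 35681156, plus strand, hg19) encodes a membrane enzyme whose active site faces outward. It was at 0.180 and 7.82 FPKM in scrambled cells (normoxia, then hypoxia) and 0 and 0.506 in TET1-si cells, which came from approximately 6, 256, 0 and 15 reads. H-scr stood far above the other 3 libraries, and the hypoxic TET1-si library was the second highest. In scrambled cells CA9 was 43.4-fold higher in hypoxia (log2 ratio 5.44, interval 4.18 to 6.78). On the log2(FPKM + 0.1) scale this change was 4.82, which placed CA9 at 97 of 15057 genes and at 8 of 11907 protein-coding genes from the highest. In hypoxia CA9 was 15.5-fold lower in TET1-si than in scrambled cells (log2 ratio -3.95, interval -4.83 to -3.22). That change, -3.71 with the pseudocount, ranked 157 from the lowest of all genes and 50 from the lowest of protein-coding genes. CA9 is among the genes ranked only through H-scr, so it had to differ there, and these ranks are a description. CA9 was listed at 0 in N-si, so neither its hypoxia response in TET1-si cells nor its TET1-si response in normoxia has a ratio. With the pseudocount they were 2.60 and -1.49. The difference of hypoxia responses, the TET1-si one minus the scrambled one, was -2.22, but its direction rests on how the 0 is treated, since a pseudocount of 0.01 gave 0.32. ARHGEF39, which overlaps CA9 on the opposite strand without sharing canonical exon bases, was at 16.8, 9.73, 14.7 and 7.50 FPKM and was lower in both hypoxic libraries where CA9 was higher.

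**Figure D1:**
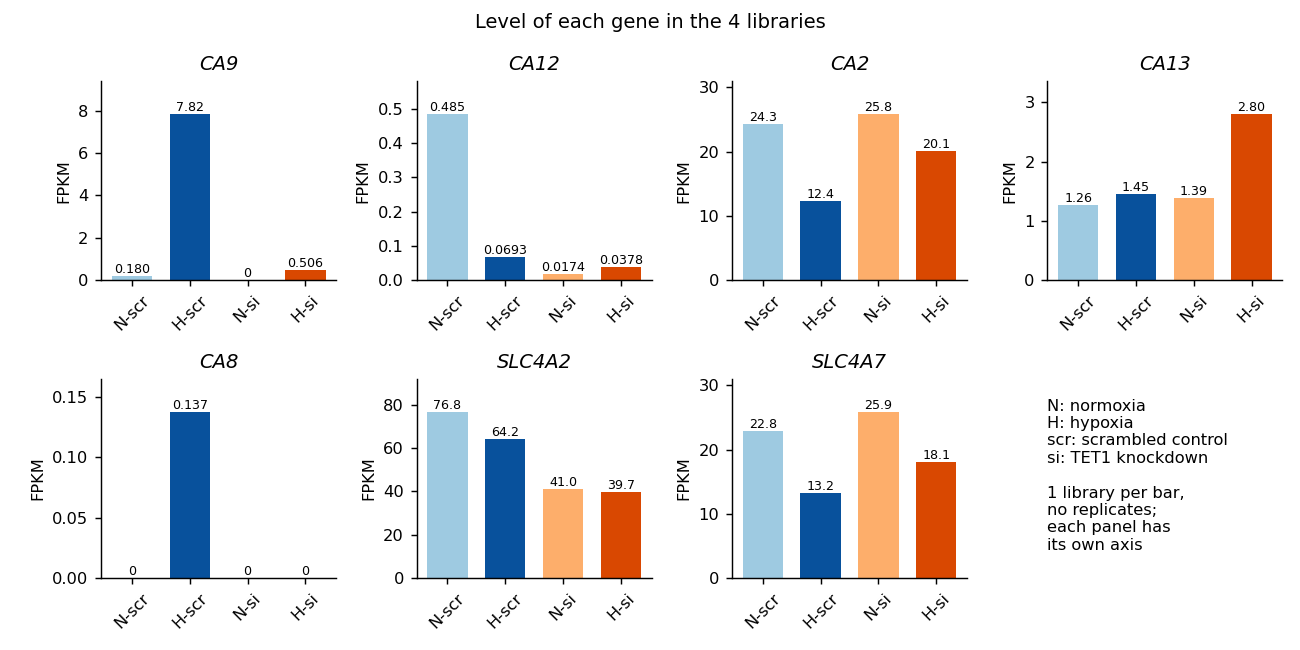
Level of each of the 7 genes in FPKM (vertical axes, each panel with its own scale) in N-scr, H-scr, N-si and H-si, with 1 library per bar and no error bars. CA9 stands at 7.82 FPKM in H-scr and at or below 0.506 in the other libraries, while SLC4A2 is lower in both TET1-si libraries (41.0 and 39.7) than in both scrambled ones (76.8 and 64.2).

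CA12 (ENSG00000074410, chromosome 15, 63613577 to 63674360, minus strand) encodes the other surface enzyme of the set. It was at 0.485 and 0.0693 FPKM in scrambled cells (normoxia, then hypoxia) and 0.0174 and 0.0378 in TET1-si cells, which came from approximately 65, 10, 3 and 5 reads. N-scr alone carried more than traces. The level was 6.99-fold lower in hypoxia in scrambled cells (log2 ratio -2.81, interval -3.92 to -1.83), the opposite direction to CA9. In normoxia it was lower after TET1-si, with a log2 ratio of -4.80 (interval -6.85 to -2.92). Between the hypoxic libraries and between the TET1-si libraries no difference was detectable at this depth (intervals -2.78 to 0.81 and -1.50 to 3.55). The mean of CA12 was 0.152 FPKM, below the minimum, so it enters no count of higher or lower genes. CA9 and CA12 together with CA4, CA6 and CA14, the carbonic anhydrases that act outside the cell, summed to 0.945 and 8.29 FPKM in scrambled cells (normoxia, then hypoxia) and 0.368 and 0.938 in TET1-si cells. CA9 made up 94.3% of that sum in H-scr and 53.9% in H-si, and CA12 made up 51.3% in N-scr.

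CA2 (ENSG00000104267, chromosome 8, 86376081 to 86393693, plus strand) encodes the fast cytosolic enzyme and was the most abundant carbonic anhydrase in every library. It was at 24.3 and 12.4 FPKM in scrambled cells (normoxia, then hypoxia) and 25.8 and 20.1 in TET1-si cells, on 409 to 853 approximate reads. No difference between the normoxic libraries was detectable (log2 ratio interval -0.06 to 0.23), and H-scr was the lowest. The hypoxia response of CA2 was -0.96 in scrambled cells (interval of the ratio -1.15 to -0.80), just short of 2-fold (-1.08 with median-of-ratios scaling, past it), and -0.36 in TET1-si cells (-0.51 to -0.21). It was higher in TET1-si than in scrambled cells in hypoxia, by 0.69 (0.52 to 0.88). The hypoxia responses thus differed by 0.61 (counting interval 0.38 to 0.84). The share of CA2 in the summed FPKM of the 15 carbonic anhydrase genes went from 80.2% in N-scr to 43.7% in H-scr, against 84.1% in N-si and 65.0% in H-si. CA9 took 0.596%, 27.6%, 0% and 1.64% of the same sums. The sum itself moved little and lay between 28.3 and 30.9 FPKM.

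CA13 (ENSG00000185015, chromosome 8, 86132816 to 86196302, plus strand) encodes a further cytosolic enzyme and is the neighbour of CA2 among the expressed genes of its chromosome. Its levels were 1.26 and 1.45 FPKM in scrambled cells (normoxia, then hypoxia) and 1.39 and 2.80 in TET1-si cells, on 106 to 231 approximate reads. H-si stood apart as the highest. Hypoxia gave no detectable difference in scrambled cells (log2 ratio interval -0.17 to 0.59) and a log2 ratio of 1.01 in TET1-si cells (0.69 to 1.33), or 0.96 with the pseudocount, just short of 2-fold (1.10 with TPM rescaling). In hypoxia CA13 was higher after TET1-si by 0.90 (0.63 to 1.26), and in normoxia the interval, -0.24 to 0.53, included 0. The difference of hypoxia responses was 0.77 (0.32 to 1.29). A long noncoding RNA on the opposite strand shares 260 exon bases with CA13 and lay between 0.154 and 0.192 FPKM. CA8 (ENSG00000178538, chromosome 8, 61099906 to 61193971, minus strand), a related protein without catalytic activity, was at 0.137 FPKM in H-scr on approximately 19 reads and listed at 0 in the other libraries.

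SLC4A2 (ENSG00000164889, chromosome 7, 150754297 to 150773614, plus strand) encodes the anion exchanger AE2, which trades bicarbonate for chloride. It was the most abundant of the 7 genes in all 4 libraries, at 76.8 and 64.2 FPKM in scrambled cells (normoxia, then hypoxia) and 41.0 and 39.7 in TET1-si cells, on 3489 to 6866 approximate reads. Both TET1-si libraries were below both scrambled ones. The TET1-si response was -0.90 in normoxia (interval -0.96 to -0.85) and -0.69 in hypoxia (-0.75 to -0.63), which is short of 2-fold in each. Relative to the median of all genes in the same contrast these were -1.05 and -0.79, and with median-of-ratios scaling the normoxic change, -1.07, passed 2-fold. Hypoxia changed the level by -0.26 in scrambled cells (-0.31 to -0.21) and by -0.04 in TET1-si cells (-0.11 to 0.02), and the latter turned to 0.09 when the columns were rescaled to TPM. A long noncoding RNA on the opposite strand (ENSG00000244151) shares 693 exon bases with SLC4A2 and was at 13.7, 12.3, 7.29 and 7.25 FPKM. Counting by strand is not stated, so the reads of both genes cannot be told apart.

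SLC4A7 (ENSG00000033867, chromosome 3, 27414214 to 27525911, minus strand) encodes NBCn1, which brings sodium and bicarbonate into the cell. It was at 22.8 and 13.2 FPKM in scrambled cells (normoxia, then hypoxia) and 25.9 and 18.1 in TET1-si cells, on 2546 to 4986 approximate reads. Each hypoxic library was below its normoxic partner and each TET1-si library above its scrambled one. The hypoxia response was -0.79 in scrambled cells (interval -0.86 to -0.72) and -0.51 in TET1-si cells (-0.58 to -0.45), and the difference between them was 0.27 (0.18 to 0.37). The TET1-si response was 0.45 in hypoxia (0.38 to 0.53) and 0.18 in normoxia (0.12 to 0.24). Relative to the median of all genes the last was 0.03. SLC4A2 held 69.7% of the summed FPKM of the SLC4 genes in N-scr and 68.1% in H-scr, but 47.9% in N-si and 43.1% in H-si. Over the same libraries SLC4A11 went from 3.09% and 7.48% to 13.2% and 17.9%.

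**Figure D2:**
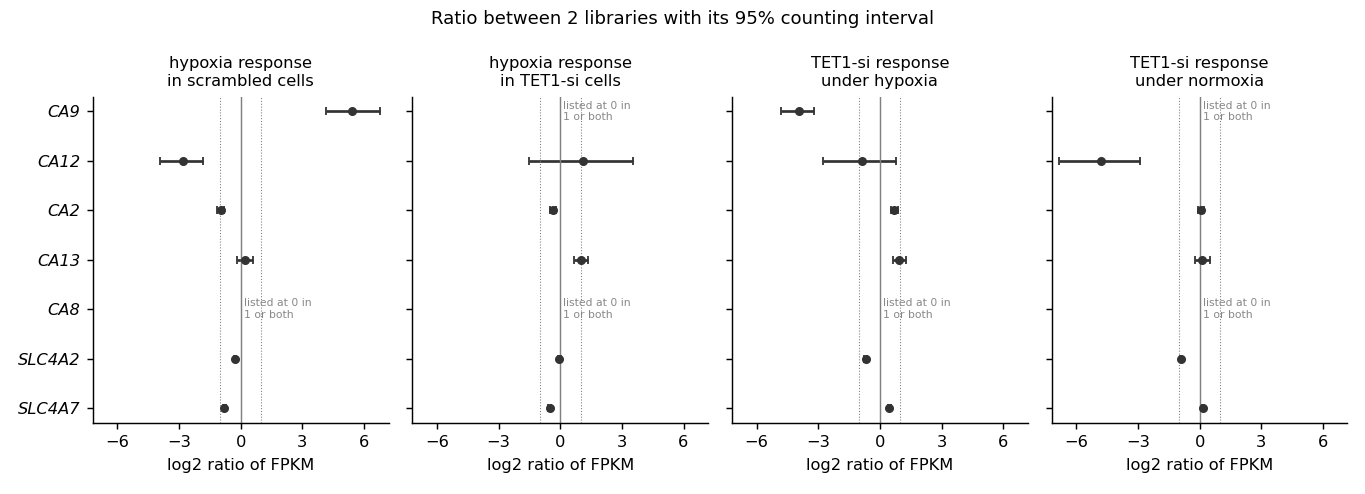
log2 ratio of FPKM between 2 libraries (horizontal axis) for each gene in the 4 contrasts, with points for the ratio, bars for its 95% counting interval and dotted lines at 2-fold; genes listed at 0 have no point. CA9 lies at 5.44 for hypoxia in scrambled cells and at -3.95 for TET1-si under hypoxia, and the other 4 members with a mean of at least 1 FPKM lie near or inside the 2-fold lines in every contrast. CA9 passed that minimum only through H-scr, so it had to differ there.

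Counted over the members with the pseudocount of 0.1, CA9 alone was at least 2-fold changed in each contrast. In hypoxia in TET1-si cells and after TET1-si in normoxia it was counted against the value listed at 0, and with a pseudocount of 1 these changes, 0.59 and -0.24, were short of 2-fold. Like the 15057 background genes, 5 of the 7 members had a mean of at least 1 FPKM. CA9 was 1 of these 5 higher in hypoxia in scrambled cells, where 12.9% of 15057 genes were higher and 4.53% lower. It was 1 of 5 higher in TET1-si cells, where 12.5% were higher and 8.66% lower. After TET1-si it was 1 of 5 lower in hypoxia, where 12% of genes were higher and 8.35% lower. In normoxia it was 1 of 5 lower after TET1-si, where 12.1% were higher and 5.56% lower. A difference of hypoxia responses of -1 or lower was found in 1 of 5 members, CA9, and in 7.86% of genes. One of 1 or higher was found in 0 of 5 members and in 4.87% of genes. With a pseudocount of 0.01 the value of CA9 turned to 0.32 and 0 members had a difference of -1 or lower. Counts of 0 or 1 among 5 genes cannot be set apart from the background and are no result about the set. Because CA9 passed the minimum only through H-scr, it had to differ there. The median over all genes was 0.05 and 0.03 for the hypoxia responses in scrambled and TET1-si cells, and 0.10 and 0.15 for the TET1-si responses in hypoxia and normoxia. The study selected genes by 3 inequalities: H-scr more than 2 times H-si, N-scr below H-scr, and N-si no higher than N-scr. CA9 and CA8, 2 of 7 members, met them, beside 4.33% of all rows and 3.84% of the genes with a mean of at least 1. The mean of CA8 was below that minimum, and CA8 met all 3 inequalities against values listed at 0. CA9 met the one between N-si and N-scr with N-si listed at 0. These inequalities use the values of the 4 libraries shown above and add no separate evidence.

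CA9 was set beside 8 textbook HIF targets (ADM, ANKRD37, BNIP3, EGLN3, NDRG1, PDK1, SLC2A1 and VEGFA). In scrambled cells 7 of 8 were at least 2-fold higher in hypoxia, with a median change of 2.32 (6 of 8 with median-of-ratios scaling). In TET1-si cells 6 of 8 were, with a median of 1.50. Over all genes 12.9% and 12.5% were higher in these contrasts. NDRG1, a stress-response gene, was at 15.9, 497, 28.0 and 579 FPKM. EGLN3, a prolyl hydroxylase that marks HIF for degradation, was at 2.62, 62.9, 5.68 and 57.9 FPKM. In hypoxia the levels of both in TET1-si cells were near those in scrambled cells. CA9 was lower in TET1-si cells, but it passed the minimum only through H-scr. It had to differ there, so its place beside the 8 targets is a description. Under hypoxia the TET1-si response was -3.71 for CA9, against a median of -0.06 over the 8 genes, with 1 of them at least 2-fold lower. In normoxia 3 of 8 were higher after TET1-si and 1 was lower, with a median of 0.67 (1 higher and 1 lower with median-of-ratios scaling). Over all genes 8.35% were lower after TET1-si in hypoxia, and 12.1% were higher and 5.56% lower in normoxia. The lower HIF target in both oxygen states was ADM, which encodes the vasodilator peptide adrenomedullin and changed by -1.62 in hypoxia and -1.59 in normoxia. The difference of hypoxia responses was below 0 in 8 of 8, with a median of -0.65. It was at -1 or lower in 2 of 8. Over all genes its median was -0.06, so most of them also lay below 0, and 7.86% were at -1 or lower. Beside it stand the median TET1-si responses of the 8 targets, 0.67 in normoxia and -0.06 in hypoxia. The contrasts share libraries, so these counts do not stand apart from each other.

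**Figure D3:**
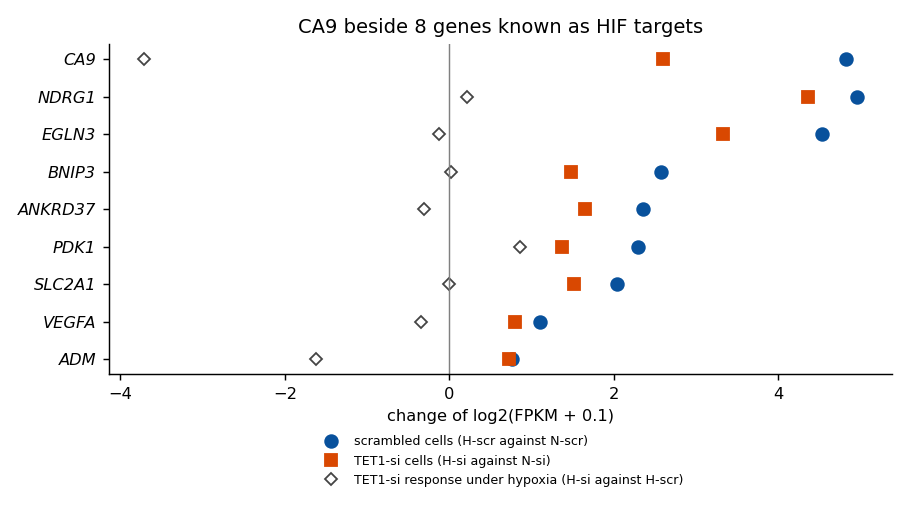
Change of log2(FPKM + 0.1) (horizontal axis) for CA9 and 8 HIF targets, with circles for hypoxia in scrambled cells, squares for hypoxia in TET1-si cells and diamonds for TET1-si under hypoxia, 1 library per group. CA9 and NDRG1 have similar circles (4.82 and 4.96), but the diamond of CA9 lies at -3.71 and that of NDRG1 at 0.22. CA9 passed the minimum only through H-scr, so it had to differ there, and its square was taken against N-si listed at 0.

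Of all 15 carbonic anhydrase genes, 5 had a mean of at least 1 FPKM. In hypoxia 2 of these 5, CA9 and CA11, were at least 2-fold higher in scrambled cells, and the same 2 in TET1-si cells. CA9 passed the minimum only through H-scr, so it had to differ there. In TET1-si cells CA9 was counted against N-si listed at 0, and with a pseudocount of 1 its change was 0.59. Across the 4 contrasts 12% to 12.9% of all genes were higher and 4.53% to 8.66% lower. Beside these shares, the small counts in this and the following lists are no result about a list. CA11, a secreted relative without catalytic activity, was at 1.32, 3.07, 1.14 and 3.68 FPKM, and both hypoxic libraries were above both normoxic ones. CA5B, the mitochondrial enzyme, was at 2.26, 2.62, 1.93 and 3.27 FPKM and was not at least 2-fold changed in any of the 4 contrasts. CA1, CA4, CA6, CA7 and CA10 were listed at 0 in all libraries, and CA3, CA5A and CA14 had means of at most 0.357 FPKM.

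Of 14 bicarbonate transporter genes 7 had a mean of at least 1 FPKM. In hypoxia 2 were higher in scrambled cells (SLC4A3 and SLC4A11) and 1 in TET1-si cells (SLC4A3), with 0 lower in either. After TET1-si 3 were higher and 1 lower in hypoxia, and 1 was higher and 1 lower in normoxia. SLC4A3, the anion exchanger AE3, was at 2.07, 4.50, 4.04 and 10.9 FPKM. SLC4A11, which unlike its relatives is not known for carrying bicarbonate, was at 3.40, 7.06, 11.2 and 16.5 FPKM. Both were highest in H-si. The lower gene was SLC4A8, a sodium-driven exchanger of chloride for bicarbonate, at 1.45, 2.26, 0.264 and 0.332 FPKM, with changes after TET1-si of -2.45 in hypoxia and -2.09 in normoxia. Its mean reached the minimum only through the scrambled libraries. The other higher gene in hypoxia was SLC4A5, named after its values were seen, at 2.57, 2.47, 2.92 and 5.10 FPKM. With median-of-ratios scaling the hypoxia responses of SLC4A3 and SLC4A11 in scrambled cells fell short of 2-fold (0.98 and 0.92), and so did the TET1-si response of SLC4A5 in hypoxia (0.88). The same scaling raised the lower genes after TET1-si from 1 to 2 in hypoxia, where SLC26A6 joined (-1.07), and from 1 to 2 in normoxia, where SLC4A2 joined (-1.07). With TPM rescaling 3 were higher in hypoxia in scrambled cells, SLC26A6 joining (1.04). SLC26A6, an exchanger of several anions, was at 28.1, 53.1, 31.3 and 27.9 FPKM, so that H-scr alone stood out.

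The next list holds the sodium-proton exchangers (SLC9 genes and their partners), of which 10 of 15 had a mean of at least 1 FPKM. None was at least 2-fold changed by hypoxia in scrambled cells and 1 was lower in TET1-si cells, SLC9B2, at 3.43, 1.75, 4.20 and 1.76 FPKM. After TET1-si 3 were higher in hypoxia (SLC9A3R2, SLC9A5 and SLC9A7, the last named after its values were seen). SLC9A5 was at 1.18, 2.21, 2.39 and 4.55 FPKM. SLC9A3R2, a scaffold protein and not an exchanger, was at 5.32, 4.02, 6.45 and 9.44 FPKM, and the related scaffold SLC9A3R1 at 21.5, 33.3, 37.6 and 36.0. CHP1, a calcium-binding cofactor of these exchangers, was at 31.0, 45.2, 41.0 and 39.8 FPKM. With median-of-ratios scaling SLC9A5 and SLC9A7 fell short of 2-fold in hypoxia (0.87 and 0.89). The same scaling gave 1 lower gene for hypoxia in scrambled cells. With TPM rescaling 12 genes of the list had a mean of at least 1, and 1 was higher in that contrast.

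The monocarboxylate transporters export lactate together with a proton, and all 6 genes of that list, chaperones included, had a mean of at least 1 FPKM. SLC16A3, the lactate exporter MCT4, was at 29.9, 139, 144 and 276 FPKM. The level in N-si was close to that in H-scr. SLC16A3 was the 1 higher gene of the list in hypoxia in scrambled cells (2.21) and after TET1-si in normoxia (2.26), and its other changes, 0.94 and 0.99, were just short of 2-fold. SLC16A7, the transporter MCT2, fell in all 4 contrasts and was at 3.97, 1.77, 0.862 and 0.151 FPKM. Its mean reached the minimum only through the scrambled libraries, so its lower level in TET1-si cells is a description. EMB, which encodes embigin, a membrane partner of MCT2, was at 12.5, 8.18, 7.38 and 3.54 FPKM and was at least 2-fold lower in hypoxia in TET1-si cells and after TET1-si in hypoxia. SLC16A8 was at 5.32, 6.65, 5.43 and 7.14 FPKM. The counts of the list moved with TPM rescaling. For hypoxia in TET1-si cells it gave 1 higher and 1 lower gene, against 0 and 2 without it. After TET1-si in hypoxia it gave 1 higher gene, against 0.

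The V-ATPase pumps protons into vesicles and, in some cells, out of the cell, and 21 of its 25 subunit genes had a mean of at least 1 FPKM. In each of the 4 contrasts 2 of the 21 were at least 2-fold higher and 0 lower. Over all genes 12% to 12.9% were higher and 4.53% to 8.66% lower in these contrasts. The counts are near that background and are no result about the V-ATPase. ATP6V1B1, the B1 isoform known from acid-secreting cells of the kidney, was at 3.38, 6.40, 4.20 and 24.8 FPKM. It was highest in the library with both hypoxia and TET1-si, and its difference of hypoxia responses was 1.64 (interval 1.26 to 2.03). ATP6V1C2 was higher in hypoxia in both cell states, at 1.08, 3.13, 1.69 and 3.62 FPKM. ATP6V0E2 was low in N-scr and similar elsewhere, at 2.66, 6.59, 7.21 and 7.70 FPKM. ATP6V1E2 was higher in TET1-si cells, at 2.27, 3.01, 7.61 and 6.23 FPKM. TCIRG1, the a3 subunit, was the most abundant of the named subunits, at 166, 318, 176 and 319 FPKM, with hypoxia responses of 0.93 and 0.86. These counts moved with the scaling. With median-of-ratios scaling 3 subunits were at least 2-fold lower after TET1-si in hypoxia (ATP6V0A2, ATP6V1B2 and ATP6V1E1) and 1 in normoxia (ATP6V1E1), all named after their values were seen, and 1 was higher in hypoxia in TET1-si cells and 1 after TET1-si in hypoxia. With TPM rescaling 4 were higher in hypoxia in scrambled cells.

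Among genes that sense extracellular protons, ASIC3, an acid-sensing ion channel, was at 0.527, 2.51, 0.630 and 1.15 FPKM, the H-scr library being the highest as for CA9, and was higher in hypoxia in scrambled cells (2.06) and lower after TET1-si in hypoxia (-1.07). Its mean, like that of CA9, reached the minimum only through H-scr, so it had to differ there and both values are a description. The related channel ASIC1 was at 3.10, 2.34, 1.56 and 2.17 FPKM. The 4 genes of the H+/K+ ATPases and the proton channel HVCN1 all had means below 1 FPKM.

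**Figure D4:**
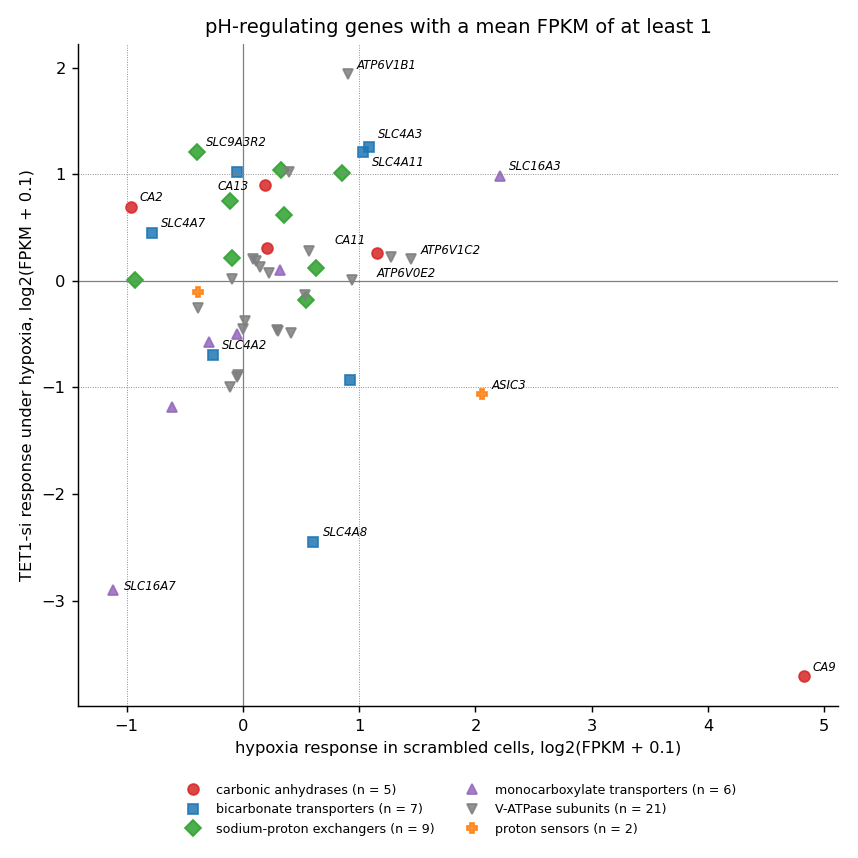
Each point is a gene of 6 pH-regulation lists with a mean of at least 1 FPKM, except genes not reported here, placed by its hypoxia response in scrambled cells (horizontal) and its TET1-si response under hypoxia (vertical), both as changes of log2(FPKM + 0.1), with dotted lines at 2-fold. CA9 lies alone at 4.82 and -3.71, and SLC4A8 and SLC16A7 are the next lowest after TET1-si, at -2.45 and -2.90. CA9 reached the minimum only through H-scr, and SLC4A8 and SLC16A7 only through the scrambled libraries. Both axes use H-scr, so the axes are not independent.

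To see whether the differences followed position, each member was set among the 25 expressed protein-coding genes on either side of it. After TET1-si 0 of the 50 genes around CA9 were lower than CA9 in hypoxia and 0 in normoxia, and their median responses were 0.12 and 0.32. The normoxic value of CA9 was taken against N-si listed at 0, and with a pseudocount of 1 it was only -0.24. Because CA9 passed the minimum only through H-scr, it had to differ there, and its place in hypoxia is a description. For SLC4A2 0 of 50 were lower in normoxia and 9 in hypoxia, with medians of 0.04 and 0.02. Its nearest neighbours CDK5 and FASTK changed by -0.50 and -0.20 in normoxia. Around CA2, 43 of 50 genes had a lower TET1-si response in hypoxia than CA2, and around CA13 45 of 50, with a median of 0.06 in both. Their neighbourhoods share most genes, and CA2 and CA13 are in each other's. For SLC4A7 34 of 50 were lower in hypoxia and 19 in normoxia. Of the genes below the minimum, CA12 had 14 of 50 neighbours lower in hypoxia and 0 in normoxia. CA8 was listed at 0 in every library but H-scr, so no place among its neighbours is given.

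**Figure D5:**
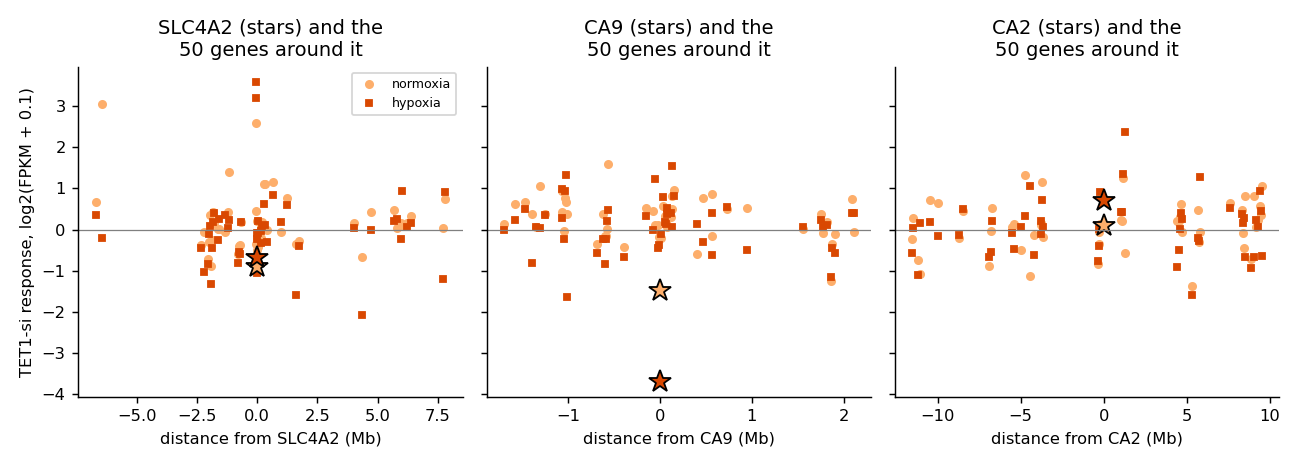
TET1-si response, as a change of log2(FPKM + 0.1) (vertical), of SLC4A2, CA9 and CA2 (stars) and of the 50 expressed protein-coding genes around each (points), by distance in Mb (horizontal), in normoxia and hypoxia. CA9 lies at -1.49 and -3.71, below all 50 of its neighbours in both. Its normoxic value rests on N-si listed at 0, and it passed the minimum only through H-scr. SLC4A2 lies below all 50 in normoxia and above 9 of them in hypoxia, and CA2 lies above most of its neighbours in hypoxia only.

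Finally, the profiles most like those of the members were sought among 9465 protein-coding genes with a mean of at least 5 FPKM, by Euclidean distance between log2(FPKM + 0.1) values over the 4 libraries, each centred on its own mean. For CA9, IFI27 lay at a distance of 1.24, with 46.1, 479, 17.4 and 60.7 FPKM, and STARD4 at 1.44, with 17.0, 138, 5.34 and 18.4 FPKM. Both had their highest value in H-scr, as CA9 did. Part of the distance rests on the pseudocount, since CA9 was listed at 0 in N-si. The other members had close counterparts. EHBP1 lay at 0.040 from CA2, followed by TMCO7 and GMCL1. ANKRD10 lay at 0.078 from CA13, with PLEKHH3 and PRR5-ARHGAP8 next. DIS3 lay at 0.040 from SLC4A2, then IFRD1 and FMNL2, and SKIV2L2 lay at 0.020 from SLC4A7, then NAE1 and PRDX6. With 4 values per gene such distances describe these libraries only.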

How the data were processed

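RNA-Seq of FaDu cells was compared in 4 libraries, 1 per group. The authors made TruSeq mRNA libraries, read them at 100 bp on an Illumina HiSeq2000, and deposited FPKM per gene from TopHat and Cufflinks (hg19, Ensembl annotation). Versions, filters and counting by strand are not given in the sources used here, and the labels call the reads single end where the methods of the study say paired end. FPKM are not counts, so no count test was run. With 1 library per group, no test across samples was possible.

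Starts in the table count from 0, so 1 was added. Depth was recovered from 5198 genes with 1 exon, whose low FPKM are whole reads divided by depth and by length less a fixed offset (213 bp). Of these values 96.8% to 97.3% came out whole within 0.05, and the search was tested on simulated data. Approximate reads are FPKM times depth times the canonical transcript length less the offset. Intervals between libraries are exact conditional ones, and those of the difference of hypoxia responses are Wald intervals, given only with at least 5 reads in each library. The 15057 genes used as background have a mean FPKM of at least 1. Gene IDs on several rows were left out. Among the 7 members there were 0 of these.

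The members and gene lists were chosen with earlier results of these data known. From each list the genes named were the 4 with the largest hypoxia response in scrambled cells and the 2 with the largest TET1-si response in hypoxia, without regard to sign and with a mean of at least 1 FPKM, beside the members, TET1, the 8 HIF targets, the nearest neighbours and the 3 most alike profiles per member. Some genes that this rule names are not reported here. Alternatives were a pseudocount of 1 or 0.01, no minimum or a mean of at least 5 FPKM, median-of-ratios scaling, TPM rescaling, and other transcript lengths for the intervals. Python 3.11.15, numpy 2.4.6, pandas 2.3.3 and scipy 1.17.1 were used. Promoter letters come from GRCh37, and protein sequences were not used here.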

Additional observations from a re-analysis of the deposited data

Results flagged for a closer look

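Some pairs of responses pointed in opposite directions, with both counting intervals excluding 0. The difference between the groups was not tested in any of them, since each group has 1 library. SLC26A6 had a hypoxia response of 0.92 in scrambled cells and of -0.17 in TET1-si cells, and accordingly a TET1-si response of -0.93 in hypoxia and of 0.16 in normoxia, on changes of log2(FPKM + 0.1). For SLC9A3R2 the hypoxia responses were -0.39 (scrambled) and 0.54 (TET1-si). ASIC1 showed -0.39 and 0.45 for the same contrasts. The TET1-si response of CHP1 was -0.18 in hypoxia and 0.40 in normoxia, and that of EGLN3 was -0.12 in hypoxia and 1.09 in normoxia. With median-of-ratios scaling the value of SLC26A6 in normoxia turned to -0.01. None of the 7 carbonic anhydrase and transporter genes met this condition.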

How the results depend on the processing

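The member counts rest mostly on CA9 and on the minimum. With no minimum, CA8 and CA12 entered. Then hypoxia in scrambled cells gave 2 higher members and 1 lower member, 2 were lower after TET1-si in hypoxia and 2 in normoxia, and the difference of hypoxia responses was at least 1 for 1 member and at most -1 for 2. With a mean of at least 5 FPKM, CA9 dropped out, so 0 members were higher in hypoxia in scrambled and 0 in TET1-si cells, 0 were lower after TET1-si in hypoxia and 0 in normoxia, and 0 had a lower difference. A pseudocount of 1 left 0 members higher in hypoxia in TET1-si cells and 0 lower after TET1-si in normoxia. A pseudocount of 0.01 gave 2 members higher in hypoxia in TET1-si cells, CA13 joining CA9, and 0 with a lower difference, as that of CA9 turned to 0.32. Median-of-ratios scaling gave 1 member lower in hypoxia in scrambled cells (CA2, -1.08) and 2 lower after TET1-si in normoxia (SLC4A2, -1.07, joining CA9). TPM rescaling gave 2 members higher in hypoxia in TET1-si cells (CA13, 1.10, joining CA9). The members that met the 3 inequalities remained 2 in number under both scalings, and no interval moved across 0 with other transcript lengths, of which the lengths inside the deposited locus were chosen after seeing the data.

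Median-of-ratios scaling moved the median TET1-si response of all genes from 0.10 to -0.03 in hypoxia and from 0.15 to -0.01 in normoxia, and TPM rescaling moved the median hypoxia response from 0.05 to 0.18 in scrambled cells. Near-zero values changed sign, CA2 to -0.08 and CA13 to -0.02 for TET1-si in normoxia (median-of-ratios) and SLC4A2 to 0.09 for hypoxia in TET1-si cells (TPM). The share of higher among changed genes was 74.0%, 59.1%, 59.0% and 68.6% for hypoxia in scrambled cells, hypoxia in TET1-si cells, TET1-si in hypoxia and TET1-si in normoxia. These became 63.9%, 51.0%, 46.4% and 55.6% with median-of-ratios scaling, 83.2%, 70.3%, 64.6% and 71.6% with TPM rescaling, and 66.0%, 44.8%, 52.8% and 67.2% with a mean of at least 5 FPKM. Without a minimum, hypoxia in scrambled cells gave 4517 higher and 1654 lower genes, against 1937 and 682. No paired analysis was possible because each group has 1 library. Depth limits CA12 to between 3 and 65 approximate reads per library, CA8 to 19 in H-scr, and CA9 in normoxia to 6 in scrambled cells.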
